A study of Sus scrofa with 18 samples.

Results

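EGR1, KLF4, KLF10, NR4A2, NR4A3, IER2, IER3, IER5 and MYC are immediate early genes of the EGR, KLF, NR4A and IER families together with MYC. Their levels were read from 18 Affymetrix 3' IVT arrays of right ventricular free wall, taken from 9 pigs before coronary arteries were tied off and once the ventricle had failed. Members were all probe sets that the probe-to-gene table gives to exactly 1 of the 9 symbols. This gave 14 probe sets for 9 of 9 genes, out of 23935 tested probe sets and 6765 named genes. EGR1 and IER5 have 3 probe sets each, NR4A3 has 2 and the others have 1. The brightest probe set, by mean level over the arrays, stands for its gene, and the other probe sets are given beside it. Probe sets whose names end in s_at, as the brightest ones of EGR1 and MYC do, can match more than 1 transcript. Each probe set has its own affinity, so levels of the 9 genes are not ranked against each other, and the median of all probe sets serves only as a rough mark of a dim signal.

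The pigs were a cross of Hampshire, Yorkshire and Swedish Landrace. The baseline group holds 9 samples taken before ligation and the failure group 9 samples of the same animals. For 6 pigs (6, 8, 9, 11, 12 and 13, called label set 1) the labels give 120 min of ischemia for the failure sample. For pigs 5, 10 and 14 (label set 2) they define failure by a right atrial pressure above 20 mmHg and give no time. Each sample is a piece of ventricular wall with all its cell types, so fewer cells of a type and less RNA per cell cannot be told apart. The study has no animals with the same operation and no ligation, so ligation and time under surgery cannot be told apart.

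Immediate early genes are transcribed within minutes of a stimulus, from promoters that are bound by factors already present in the cell and without new protein being made. Growth factors, stretch, beta-adrenergic stimulation and ischemia with reperfusion are known triggers in the heart. Their transcripts are short-lived, so a level reflects recent transcription. Most of the proteins are transcription factors that pass the signal on to later genes. EGR1, KLF4 and KLF10 bind DNA through zinc fingers, NR4A2 and NR4A3 are nuclear receptors without a known natural ligand, and MYC is a helix-loop-helix factor. The IER genes encode small regulatory proteins of other kinds.

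Levels are log2 intensities, so a difference of 1 is a 2-fold difference. Array medians lay between 5.59 and 5.66. Of the measured ventricular cardiomyocyte markers, 9 of 9 lay above the median level of all probe sets (5.63), as did 2 of 3 atrial, 4 of 5 endothelial and 4 of 4 fibroblast markers, so this mark shows heart muscle with other wall cells and does not by itself tell ventricle from atrium. The mean of the ventricular markers per array ran from 13.17 to 13.55 at baseline and from 13.06 to 13.58 in failure. Of 3 neutrophil markers, 0 lay above that median (mean per array 3.61 to 3.90 at baseline and 3.45 to 4.28 in failure), and of 6 lymphocyte markers 0 did. Red blood cell markers were lower in failure in 5 of 5 members, of which 3 passed the threshold (median log2 change -0.83; mean per array 6.60 to 7.88 at baseline and 5.64 to 6.91 in failure). Their part in the values below was not tested. GAPDH carries 3' and 5' control probe sets, and the log2 gap between them, which widens as RNA degrades and is called the GAPDH 3'/5' difference here, was highest in pig 5, at 2.61 at baseline and 3.55 in failure.

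Between the groups, 0 of the 9 genes passed the threshold. In limma, with pig as a block and adjustment over all tested probe sets, 0 of 14 member probe sets had an adjusted p under 0.05, where 16 of all 23935 did (0.0668%, of which 0.0209% were higher and 0.046% lower in failure). At an unadjusted p under 0.05 there was 1 of 14, a probe set of NR4A3, where 6.14% of all probe sets were. In an unmoderated paired test 0 of all 23935 probe sets passed, so the 0 of 14 there tells nothing about the members. With that test 1 of 14 had an unadjusted p under 0.05, where 1431 of the 23935 did. Of the 9 genes, 7 had a mean change below 0 and 2 above, with a median of -0.09, against 50.2% above 0 over all tested probe sets. The spread between animals was wide for most of the 9 genes. For EGR1, pigs 8 and 12 differed from baseline by over 2-fold in opposite directions. For 5 of the 9 genes the correlation of a pig's level in failure with its level at baseline passed its test. The same 5 had r over 0.8, against 15.6% of all tested probe sets and 25.5% of those above the median level.

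**Figure D1:**
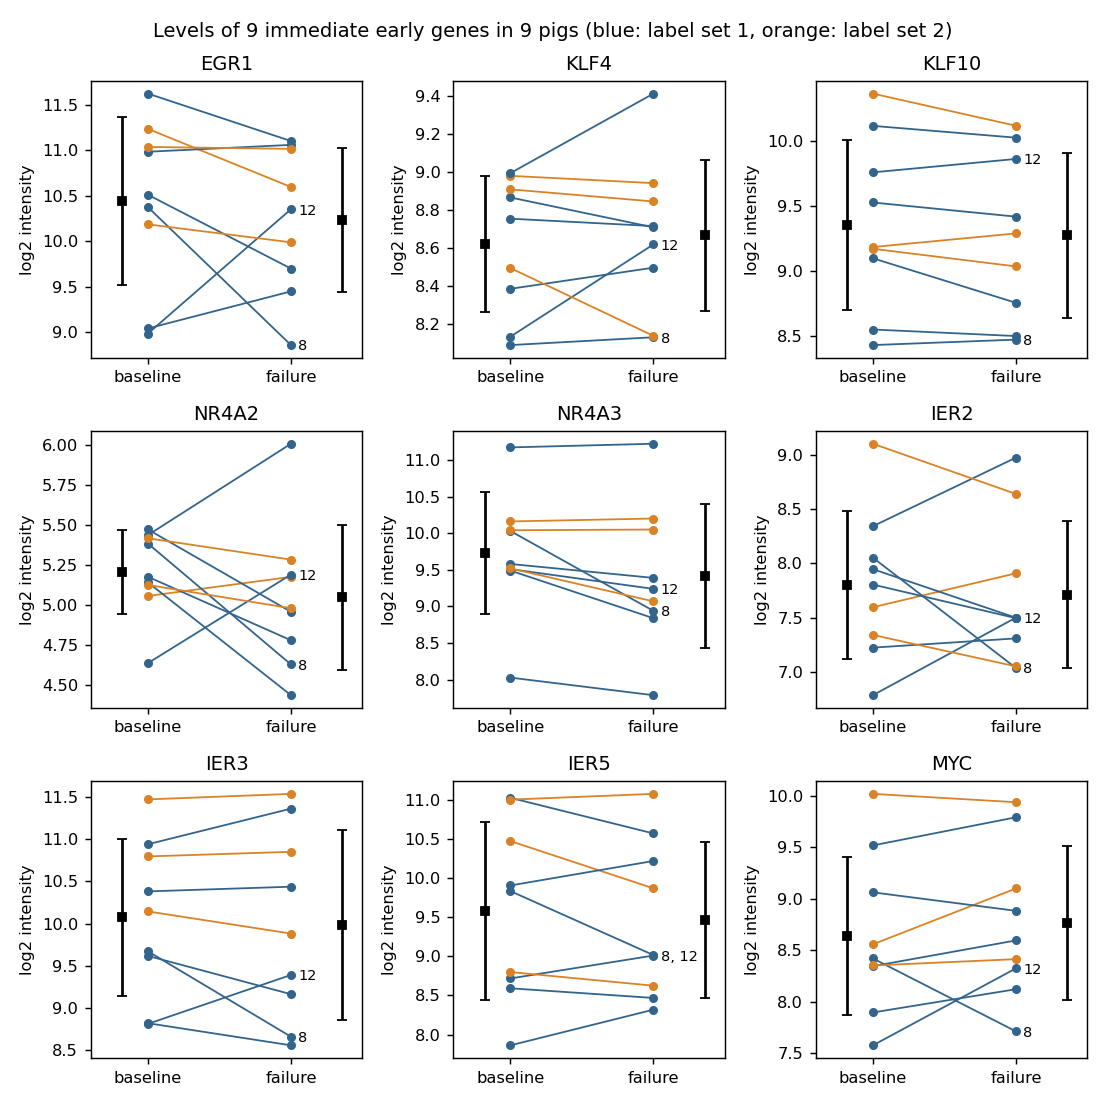
Log2 intensity of each gene at its brightest probe set, with 1 line per pig from baseline to failure (blue: label set 1, orange: label set 2) and the failure values of pigs 8 and 12 marked. Black squares and bars are group means ± SD (n = 9), and the groups overlap in all 9 genes.

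EGR1 (NCBI gene 100520726), a zinc finger factor and a prototype of the class, ran from 8.99 in pig 12 to 11.63 in pig 9 at baseline, with a median of 10.51. In failure it ran from 8.86 in pig 8 to 11.10 in pig 9, with a median of 10.35. The ranges overlapped, and the pig with the lowest value was a different one in each group. The mean log2 change was -0.21 (SE 0.21, 95% interval -0.66 to 0.24, adjusted p = 0.940 in limma), lower in 6 of 9 pigs. It was -0.40 without pig 12 and -0.04 without pig 8. Behind this mean, pig 8 had a log2 change of -1.52 (2.86-fold lower) and pig 12 one of 1.37 (2.58-fold higher). The SD of the change, 0.82 over 9 pigs, was larger than that of 99.6% of all tested probe sets (median 0.22). The dimmer EGR1 probe sets had mean changes of -0.12 and -0.06, which were 0.0196 and 0.0984 without pig 8, and their changes over the 9 pigs correlated with those of the brightest with r = 0.952 and r = 0.967. The 3 probe sets thus gave 1 pattern over animals, with pig 8 lowest and pig 12 highest in each.

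KLF4 (NCBI gene 595111), a zinc finger factor known for quiescence of vessel wall cells, ran from 8.09 in pig 8 to 8.99 in pig 6 at baseline (median 8.75). In failure it ran from 8.13 in pig 8 to 9.41 in pig 6 (median 8.71). The same pigs were lowest and highest in both groups. Its mean change was 0.04 (SE 0.08, 95% interval -0.13 to 0.22, adjusted p = 0.963), with 4 pigs higher and 5 lower, and it ran from -0.0105 without pig 12 to 0.0946 without pig 14. Pigs 6 and 12 had changes of 0.42 and 0.48, the others lay between -0.36 and 0.11.

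KLF10 (NCBI gene 100153665), first described as a gene induced early by transforming growth factor beta, differed widely between pigs and little within them. At baseline it ran from 8.43 in pig 8 to 10.37 in pig 10 (median 9.18), and in failure from 8.47 to 10.12 in the same 2 animals (median 9.29). The 9 pigs held the same order in both groups (Spearman rho = 1). Changes ran from -0.34 in pig 11 to 0.11 in pig 5, with a mean of -0.08 (SE 0.06, 95% interval -0.21 to 0.05, adjusted p = 0.908). It was -0.10 without pig 5 and -0.05 without pig 11. Its baseline SD of 0.66 was above that of 98.4% of all tested probe sets, whereas the SD of its change, 0.15, was above that of only 17.8%. The interval allows a level in failure of 0.864 to 1.03 times that at baseline.

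NR4A3 (NCBI gene 397479) had the smallest p of the 9 genes. This nuclear receptor, also called NOR-1, ran from 8.03 in pig 11 to 11.17 in pig 9 at baseline (median 9.58). In failure it ran from 7.79 to 11.22 in the same 2 animals (median 9.24). Here 3 pigs were higher by at most 0.05 and 6 were lower by 0.19 to 1.09. The mean change was -0.31 (SE 0.10, 95% interval -0.53 to -0.09, unadjusted p = 0.0103), which did not pass in limma (adjusted p = 0.591). This probe set is the 1 of 14 whose values were deposited with at most 2 decimals, as were those of 1473 of the 24123 probe sets on the array. Without pig 8, the animal with the change of -1.09, the mean was -0.21 (adjusted p = 0.754). Over the fits that leave out 1 pig each, the adjusted p ran from 0.543 to 0.843. The other probe set, with a mean level of 5.17 below the array median, had a mean change of -0.18 (SE 0.13, adjusted p = 0.908), with 5 pigs higher and 4 lower. Without pig 8 that mean was -0.0206. The 2 probe sets had the same sign in 5 of 9 pigs. The mean of both had a change of -0.24 (SE 0.11, adjusted p = 0.806).

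NR4A2 (NCBI gene 100157120), the related receptor known as Nurr1, lay below the median of all probe sets on all arrays but 1, the failure array of pig 6. At baseline it ran from 4.64 in pig 12 to 5.47 in pig 9 (median 5.18), and in failure from 4.44 in pig 11 to 6.01 in pig 6 (median 4.98). Its mean change was -0.16 (SE 0.13, 95% interval -0.44 to 0.13, adjusted p = 0.916), with pig 8 at -0.76 and pig 11 at -0.70 as the lowest and pig 6 at 0.57 and pig 12 at 0.55 as the highest. The mean was -0.25 without pig 6 and -0.08 without pig 8. Of the 9 genes it kept its order between groups least (r = 0.131 between baseline and failure level).

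IER2 (NCBI gene 100525209), a small nuclear protein induced with the FOS and JUN genes, ran from 6.78 in pig 12 to 9.10 in pig 10 at baseline (median 7.80). In failure it ran from 7.04 in pig 8 to 8.97 in pig 6 (median 7.50). Its mean change was -0.09 (SE 0.15, adjusted p = 0.960), with pig 8 at -1.02 and pig 12 at 0.71. The mean was 0.03 without pig 8 and -0.19 without pig 12.

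IER3 (NCBI gene 100154770), also known as IEX-1 and tied to cell survival, ran from 8.81 in pig 12 to 11.47 in pig 10 at baseline (median 10.14). In failure it ran from 8.56 in pig 11 to 11.54 in pig 10 (median 9.88). Its mean change was -0.09 (SE 0.13, adjusted p = 0.951), with 5 pigs higher and 4 lower and extremes of -1.01 in pig 8 and 0.58 in pig 12. The mean was 0.02 without pig 8 and -0.17 without pig 12.

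IER5 (NCBI gene 100511095), which is known to regulate the heat shock factor HSF1, had the largest baseline spread of the 9 genes. It ran from 7.86 in pig 11 to 11.02 in pig 9 at baseline (median 9.83, SD 1.14) and from 8.32 in pig 11 to 11.07 in pig 10 in failure (median 9.01, SD 0.997). Its baseline SD was above that of 99.8% of all tested probe sets. The mean change was -0.12 (SE 0.12, adjusted p = 0.943), from -0.82 in pig 8 to 0.46 in pig 11. It was -0.03 without pig 8 and -0.19 without pig 11. Of its other probe sets, the one at a mean level of 5.18 followed it over pigs (r of the changes 0.736). The dimmest, at 3.20 and below the 25th percentile of every array (3.91 to 4.07), did not (r = -0.151) and had an SD of the change of 0.20, close to the median of all probe sets.

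MYC (NCBI gene 448810), which drives genes of growth and ribosome production, ran from 7.58 in pig 12 to 10.02 in pig 10 at baseline (median 8.42). In failure it ran from 7.71 in pig 8 to 9.94 in pig 10 (median 8.59). It was higher in 6 of 9 pigs, with a mean change of 0.13 (SE 0.12, 95% interval -0.12 to 0.37, adjusted p = 0.925). Pig 8 was lowest at -0.71 and pig 12 highest at 0.75, and the mean was 0.23 without pig 8 and 0.05 without pig 12.

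**Figure D2:**
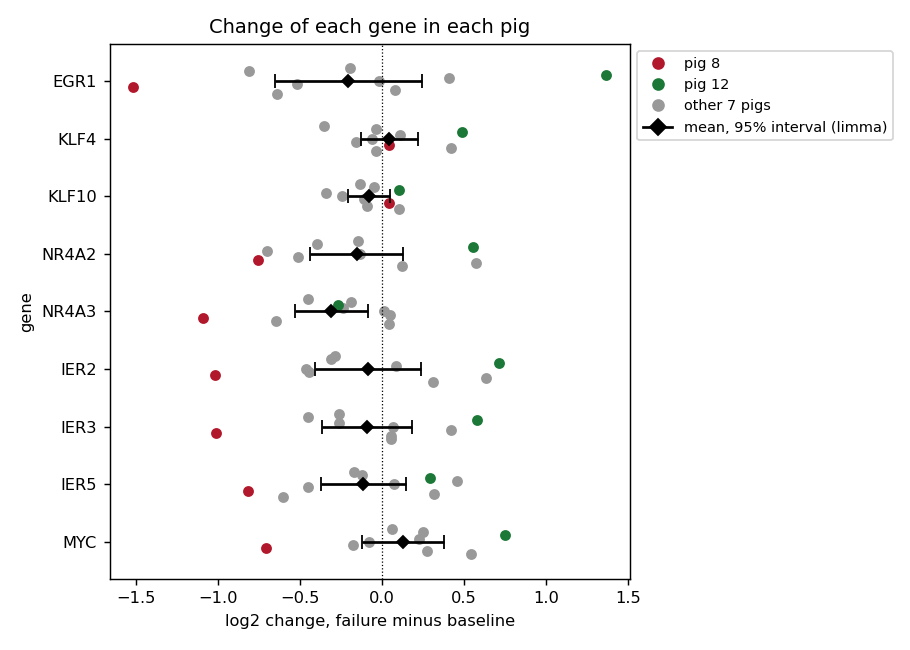
Log2 change from baseline to failure of each gene in each of the 9 pigs, with pig 8 in red and pig 12 in green, and the mean with its 95% interval from limma in black. Pig 8 has the lowest value in 7 of the 9 genes and pig 12 the highest in 5.

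The extreme animals recurred from gene to gene. Pig 8 had the lowest change of the 9 animals in 7 of 9 genes, all but KLF4 and KLF10, while it was the lowest for 10.8% of all tested probe sets. Its median change over the 9 genes was -0.82, and 4 of them differed by more than 1 on the log2 scale, against 0.602% of all probe sets in that pig. Pig 12 had the highest change in 5 of 9 genes (EGR1, KLF4, IER2, IER3 and MYC), against 7.69% of all probe sets, with a median of 0.55. In pig 12 only NR4A3 was lower (-0.27). Pigs 13 and 14 were lower in 8 of 9 genes each, against 45.9% and 51.3% of all tested probe sets, but by medians of -0.19 and -0.20. Pig 13 also had the largest rise of the GAPDH 3'/5' difference, from 0.98 to 2.17.

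The levels show where each animal stood in each group. Pig 12 was among the lowest 3 animals in 8 of 9 genes at baseline and in 1 of 9 in failure. Pig 8 was among the lowest 3 in 2 of 9 genes at baseline and in 8 of 9 in failure. Pig 11 stayed low, in 8 of 9 genes at baseline and 9 of 9 in failure. Pig 10 was among the highest 3 animals in 9 of 9 genes in both groups, with a median of 1.01 above the gene means at baseline and of 0.84 above them in failure. Pigs 5, 6 and 9 were among the highest 3 in 5, 5 and 6 genes at baseline. Such places were not counted over all tested probe sets, so they are not shown to be particular to the 9 genes. The GAPDH 3'/5' differences of pigs 8 and 12 were 0.80 and 0.61 at baseline and 1.05 and 1.16 in failure, those of pig 10 were 1.24 in both, and those of pig 11 were 1.49 and 1.40. The part of RNA quality in the levels was not tested, as the relations with this difference given below are of changes only.

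**Figure D3:**
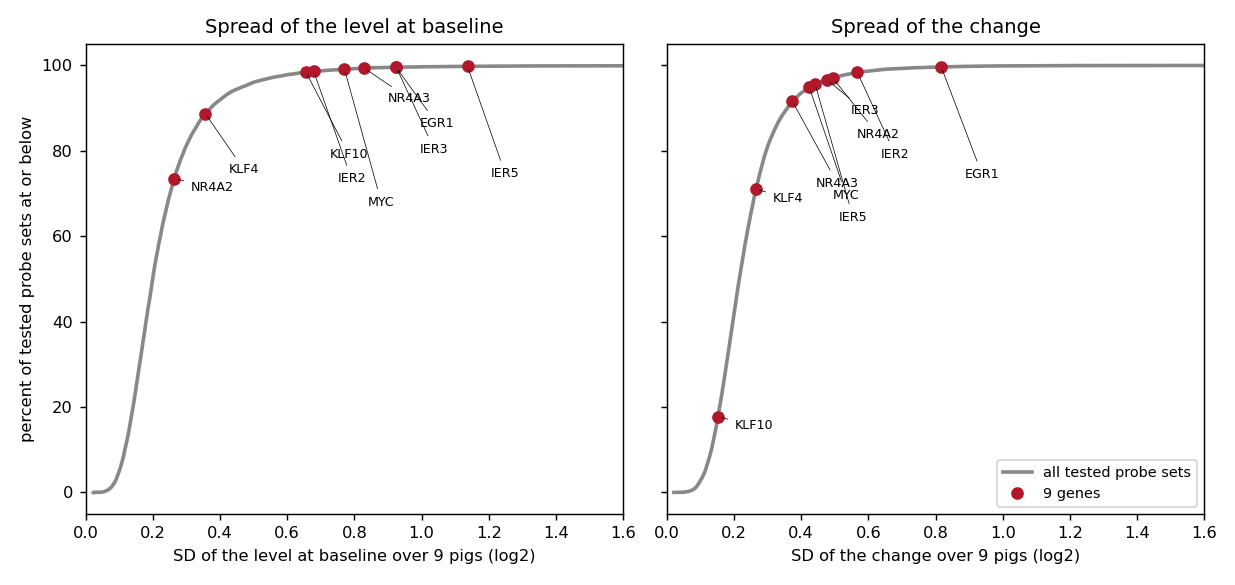
Cumulative share of all tested probe sets (grey line) by the SD over 9 pigs of the baseline level (left) and of the change (right), with the 9 genes in red. EGR1 lies above 99.6% of probe sets in the spread of its change, and KLF10 above 98.4% in the spread of its baseline level but above 17.8% in that of its change.

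The spread between animals was high for most of the 9 genes before ligation already. At baseline, 7 genes had an SD from 0.66 (KLF10) to 1.14 (IER5), where the median over all tested probe sets was 0.20. KLF4 (0.36) and NR4A2 (0.26) were closer to it. The SD of the change lay above the 95th percentile of all probe sets (0.43) for 5 genes, EGR1, NR4A2, IER2, IER3 and IER5. All probe sets include dim ones, so these percentiles are not matched on level.

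For 5 of the 9 genes the level in failure correlated with the level at baseline over the 9 pigs past the threshold, and for 4, KLF4, EGR1, IER2 and NR4A2, it did not. In all, 35 relations were computed over pigs, with exact two-sided permutation tests and Benjamini-Hochberg adjustment over the 35. For KLF10 the correlation was r = 0.973 (adjusted p = 9.65e-05, the exact permutation p being the smallest that 9 animals allow). It was r = 0.923 for IER5 (adjusted exact permutation p = 0.0133), 0.909 for IER3 (0.0133), 0.927 for NR4A3 (0.0169) and 0.844 for MYC (0.0289). By rank, IER5 (rho = 0.950, adjusted exact permutation p = 0.00617), KLF4 (0.917, 0.0153), IER3 and NR4A3 (0.883 and 0.0215 each) and KLF10 (1, 0.000193) passed, and MYC did not (0.783, 0.0861). KLF4 had r = 0.757, which did not pass (adjusted exact permutation p = 0.0762). EGR1 (r = 0.557, rho = 0.683), IER2 (0.651 and 0.367) and NR4A2 (0.131 and 0.0667) passed neither. Over all tested probe sets the median r was 0.511, and over those above the median level it was 0.664. Over the 9 genes it was 0.844. An r over 0.8 was found for 5 of the 9 genes, for 15.6% of all tested probe sets and for 25.5% of those above the median level.

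Leaving out the 2 pigs farthest from the median baseline level left r at 0.951 for KLF10, 0.948 for IER3, 0.886 for IER5 and 0.820 for KLF4. It gave 0.676 for NR4A3 without pigs 9 and 11 and 0.481 for MYC without pigs 10 and 6. Leaving out the farthest animals narrows the range of levels, which can by itself lower r. Within the 6 pigs of label set 1 the values were 0.975 for KLF10, 0.932 for NR4A3, 0.903 for IER5, 0.846 for IER3, 0.801 for KLF4 and 0.765 for MYC. Label set 2 has 3 pigs, too few for a value.

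Changes of the 9 genes tended to go together within an animal. Of the 36 pairs of genes, 32 had a positive correlation of their changes over 9 pigs and 18 had r over 0.5, with a median of 0.509. Over all pairs of named genes above the median level, 14.1% had r over 0.5 and the median was 0.0267. Over pairs of the 33 other early response genes given below, these were 22.2% and 0.214. The closest pairs were IER2 and MYC (r = 0.901), EGR1 and IER5 (0.828) and NR4A2 and IER2 (0.819). KLF10 had r from -0.511 (IER5) to 0.404 (NR4A2). The SD of its change, 0.15, was below the median of all tested probe sets (0.22), so these r rest on small changes. NR4A3 had r over 0.5 with 1 gene, IER3 (0.665). These pairs share the same 9 animals and arrays and are a description. Without pigs 8 and 12, a choice made after the values were seen, 6 of the 36 pairs (16.7%) had r over 0.5 and the median was 0.0971. The share was then 17.6% over named genes above the median level and 24.6% over the 33 other early response genes. Without pig 8 alone 14 of the 36 pairs had r over 0.5.

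**Figure D4:**
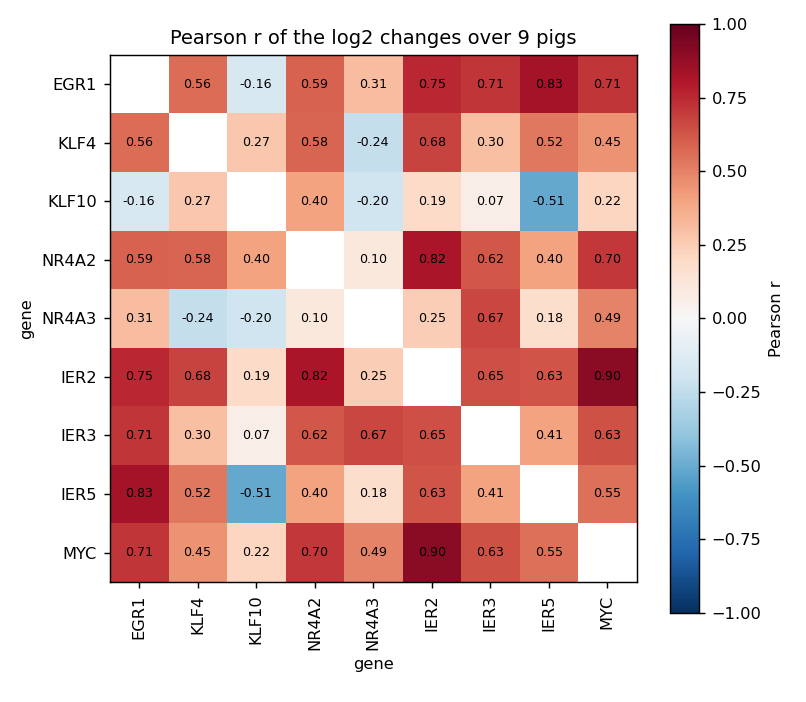
Pearson r of the log2 changes over 9 pigs for each of the 36 pairs of genes, from blue (-1) to red (1). IER2 and MYC have the highest value (0.901), and the row of KLF10 holds the lowest (-0.511, with IER5).

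Tested against EGR1, the change of IER5 was the 1 of 8 that passed. It had r = 0.828 (adjusted exact permutation p = 0.0274) and rho = 0.850 (adjusted exact permutation p = 0.0354). This held at r = 0.836 without the 2 animals with the most extreme EGR1 changes, pigs 12 and 8, and at 0.839 within label set 1. IER2 (r = 0.753, adjusted exact permutation p = 0.0775), IER3 (0.713, 0.113) and MYC (0.712, 0.113) did not pass. Without pigs 12 and 8 they had r of 0.288, -0.0413 and -0.138, so their values depended on those animals. Leaving these out also narrows the range of EGR1 changes, which can by itself lower r.

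None of the 9 genes passed against IL6, an inflammatory cytokine, or against the GAPDH 3'/5' difference. For IL6 the highest value was that of NR4A3 (r = 0.720, adjusted exact permutation p = 0.113; rho = 0.533, adjusted exact permutation p = 0.397). It was 0.606 without pigs 5 and 9 and 0.881 within label set 1. Over all 9 pigs IER3 had r = 0.648 (adjusted exact permutation p = 0.163). Without pigs 5 and 9 the highest r was that of MYC, 0.818 against 0.543 over 9 pigs. EGR1 then had 0.701 against 0.158 and IER5 0.619 against -0.156, while KLF4 had -0.0153 and KLF10 -0.0765. These values thus depended on which animals were used. Against the change of the GAPDH 3'/5' difference, the coefficients ran from -0.140 (IER3) to 0.588 (KLF10, adjusted exact permutation p = 0.227; rho = 0.750, adjusted exact permutation p = 0.112). With this difference as a covariate in limma the NR4A3 change was -0.33 (SE 0.12, adjusted p = 0.672). In that fit 0 of 14 member probe sets were called, where 9 of all 23935 were. An unadjusted p below 0.05 was found for 1 of 14 and for 1538 of the 23935.

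The difference in change between label sets was tested with an interaction term in limma, and 0 of 14 member probe sets passed, none of them with an unadjusted p below 0.05. Over all probe sets 0 passed (0%) and 5.67% were under 0.05 unadjusted. KLF4 had the smallest p: its change was 0.14 ± 0.26 (SD, n = 6) in label set 1 and -0.15 ± 0.18 (SD, n = 3) in label set 2, a difference of -0.30 (unadjusted p = 0.0855, adjusted p = 0.885 in limma). For NR4A3 the change was -0.40 ± 0.41 in the former and -0.13 ± 0.27 in the latter (adjusted p = 0.938). For EGR1 these were -0.17 ± 1.01 and -0.29 ± 0.32 (adjusted p = 0.994). Pigs 8 and 12 are both of label set 1.

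Other genes of the early response were read from a list of 57 symbols, of which 33 are named on the array. FOSB, JUNB, EGR2, EGR3 and NR4A1 are among those not analysed here, as the table names no probe set for them. In limma 0 of 33 passed in either direction, and 5 were under an unadjusted p of 0.05, where 6.14% of all tested probe sets were. Of the 33, 23 had a mean change above 0 and 10 below, where 50.2% of all tested probe sets were above 0. Their median was 0.06, against -0.09 for the 9 genes and 0.000344 for all tested probe sets. The smallest p belonged to KLF9, a zinc finger factor induced by glucocorticoids, with a change of 0.16 (SE 0.06, higher in 8 of 9 pigs, adjusted p = 0.637). A dim second KLF9 probe set at a level of 3.83 had a change of -0.04. For GADD45A, a stress gene of growth arrest, the change was 0.27 (SE 0.11, adjusted p = 0.753). For CEBPB, a leucine zipper factor of inflammation, it was 0.19 (SE 0.08, adjusted p = 0.753). For ID1, an inhibitor of helix-loop-helix factors, it was 0.15 (SE 0.07, adjusted p = 0.798).

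**Figure D5:**
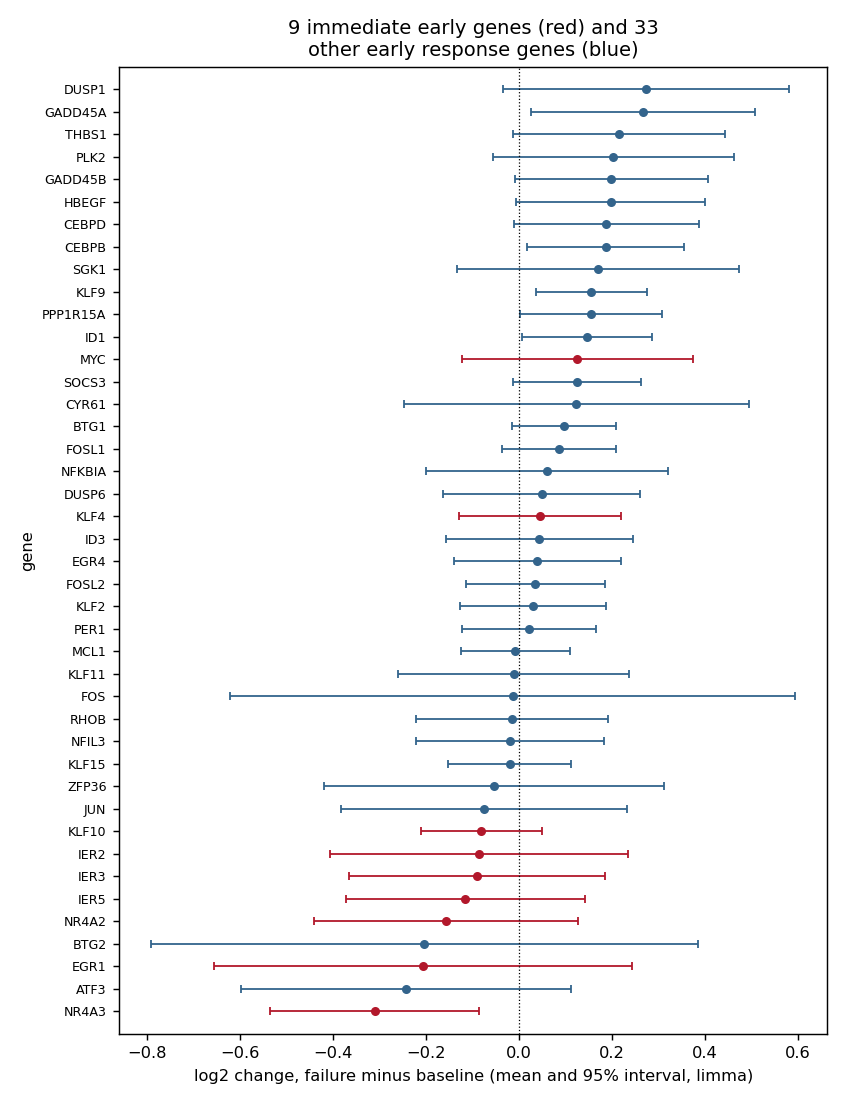
Mean log2 change with its 95% interval from limma (9 pigs) for the 9 genes (red) and 33 other early response genes (blue), ordered by change. NR4A3 is lowest at -0.31 and DUSP1 highest at 0.27; the 4 widest intervals are those of FOS, BTG2, EGR1 and CYR61.

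Upstream regulators and partners were measured for 9 of 24 listed symbols, with 0 past the threshold and 0 at an unadjusted p under 0.05 in limma. Their median change was 0.06. They include RXRA, a partner receptor of NR4A2, with a change of 0.10 (SE 0.07, adjusted p = 0.894), SIN3A, a corepressor scaffold, with 0.09 (SE 0.07, adjusted p = 0.897), CREM, a factor of the cyclic AMP response, with 0.08 (SE 0.07, adjusted p = 0.914), and RXRG, also a retinoid X receptor, with -0.12 (SE 0.14, adjusted p = 0.947). Of 14 listed targets of MYC 10 were measured, 4 higher and 6 lower with a median of -0.02. In limma 0 passed and 1 had an unadjusted p below 0.05, where 6.14% of all tested probe sets did. It was ODC1 (log2 change -0.15, SE 0.07, adjusted p = 0.801, named after its value was seen).

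For each of the 9 genes, the 3 other genes whose levels were most like it over the 18 arrays were taken from 4916 named genes above the median level. This gave 19 genes with r from 0.774 to 0.960, given with no p since they are the best of many and share the arrays. The 18 arrays are a baseline and a failure array of each of 9 pigs. The pairing was not used here, so standing differences between animals enter these r. CYR61 was among the 3 for EGR1 (r = 0.862), IER3 (0.930) and IER5 (0.960), as was IFRD1 (0.834, 0.928 and 0.943). BTG2 was the most alike to EGR1 (0.912). GADD45B was most alike to IER2 (0.868) and MYC (0.934) and was also among the 3 for NR4A2 (0.780), after ZFP36 (0.822) and DUSP1 (0.801). For MYC, ADAMTS1 (0.926) and STX11 (0.918) followed, for IER2 PTPN1 (0.860) and CD83 (0.859), and for IER3 GADD45G (0.904). ATF3 was close to IER5 (0.945) and to NR4A3 (0.804), the latter after DDIT3 (0.849) and ABRA (0.843). KLF4 was closest to DUSP1 (0.816), LYVE1 (0.775) and ACSL3 (0.774).

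KLF10 was closest to CTH (0.882), PAK1IP1 (0.813) and NOP58 (0.804). Its 3 genes share none with those of the other 8. Of the 19 genes, 6 are on the list of other early response genes, which makes up 0.590% of the genes searched. These 6 are BTG2, CYR61, DUSP1, ZFP36, GADD45B and ATF3.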

How the data were processed

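RNA from 9 pigs at baseline and in failure was measured on Affymetrix 3' IVT arrays, from 250 ng of total RNA per sample, per the labels' protocols. The values used are log2 intensities per probe set as deposited by the authors. The submitters' processing notes name Partek, without its version; how background, scaling between arrays and probe summaries were handled is not given in the sources used here. Had the arrays been scaled to one another, a shared shift of most transcripts could not be seen. Values ran from 2.08 to 15.2. Precision is limited by the number of arrays.

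Control probe sets (188 of 24123) were left out and 23935 were tested in R 4.3.3 by the moderated two-sided test of limma 3.58.1, each pig being a fixed block, with p-values adjusted by Benjamini-Hochberg over these 23935 and a threshold of 0.05. Adjusted p-values of genes come from this fit, and intervals are 95%. The pairing comes from the pig numbers in the labels: after removal of group means, the r between a pig's own samples lay between 0.449 and 0.750, and 9 of 9 baseline samples correlated best with their own failure sample. The label set difference was an interaction term in the same model. The fits were tested on simulated data. Relations over pigs used exact permutation tests.

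The probe table names 1 gene for 10069 of the tested probe sets and lists several for 198. It does not list 13826, which are unnamed here. All 9 gene identifiers carry the same symbol in RefSeq's genes for Sscrofa11.1. Genes named are the 9 members, up to 4 genes with the smallest p of the lists of early response genes and of regulators, and the 3 genes most like each member over the arrays; others are said to be chosen after their values were seen or stand as markers or measures in a test. Members and lists were chosen with earlier results of these data known. Alternatives were no block, a random block, other scalings, a level filter, other variance models, each pig left out, each label set alone, a GAPDH 3'/5' covariate, rounding and the mean of a gene's probe sets. Promoter and protein descriptions that had been planned are not given, since no sequence was used here.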

Additional observations from a re-analysis of the deposited data

Results flagged for a closer look

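In 2 of 50 groups of 9 values a single animal stood far from the other 8, where chance gives about 1 in 20 (2.5). At baseline NR4A2 was 4.64 in pig 12, with the others from 5.06 to 5.47. The change of the dimmer NR4A3 probe set was -1.42 in pig 8, with the others from -0.42 to 0.19.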

How the results depend on the processing

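Without the replicate block for pig 0 of all probe sets passed instead of 16, and the block changed no call of a member, since 0 of 14 passed either way. The unmoderated paired test gave 0, label set 1 alone 3, label set 2 alone 0, the GAPDH 3'/5' covariate 9, and the restriction to probe sets above the median level, which leaves 11967 to test, 9. Leaving out 1 pig each gave 2 (without pig 10) to 26 (without pig 8); the cause was not tested. Of 307 member values recomputed over all alternatives, 0 passed the threshold, 291 kept their direction and 16 changed sign. KLF4 went from 0.04 to -0.15 in label set 2 alone and ran from -0.0105 to 0.0946 over the fits without 1 pig. The EGR1 probe set with a change of -0.12 went to 0.00748 in label set 1 alone and ran from -0.32 to 0.0196 without 1 pig. The one at -0.06 went to 0.0387 with the covariate and ran from -0.25 to 0.10. The dimmer NR4A3 probe set went to 0.0227 in label set 2 alone. IER2 ran from -0.19 to 0.0294 and IER3 from -0.17 to 0.0248, both above 0 without pig 8. The dimmest IER5 probe set, at 0.00538, went to -0.000114 after quantile normalization and to -0.0286 in label set 1 alone, and ran from -0.0329 to 0.0464. The search for promoter motifs was not run, as no promoter sequences were used here.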

Other observations

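Pigs 8 and 12 were also often at the extremes of other early response genes, though not alone. Pig 8 had the lowest change in 11 of 33 of them and pig 12 the highest in 7, while over all tested probe sets the shares were 10.8% and 7.69%. Pig 9 had the lowest change in 8 of the 33, against 14.9% of all tested probe sets, and in 0 of the 9 genes. The following genes were chosen after their values were seen. FOS, a partner of the JUN factors in AP-1, ran from -1.84 in pig 8 to 1.77 in pig 12, with a mean of -0.01. BTG2, an antiproliferative gene, ran from -2.11 to 1.33 in the same 2 animals, CYR61, a matricellular protein, from -0.89 to 1.19, and ZFP36, which speeds decay of short-lived messages, from -1.12 to 0.85. Pig 6 had the highest change in 11 of the 33, more than pig 12, against 10.8% of all tested probe sets and 1 of the 9 genes. Among the 11 was DUSP1, a phosphatase of mitogen-activated kinases, at 1.21.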
